A study of Mus musculus with 4 samples.

Results

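The genes described here are the nuclear-encoded subunits of the mitochondrial respiratory chain and ATP synthase. They were taken as the protein-coding genes of GENCODE M21 whose symbols begin with Ndufa, Ndufb, Ndufc, Ndufs or Ndufv and a digit, with Cox and a digit from 4 to 8, with Uqcr or with Atp5, together with Sdha, Sdhb, Sdhc and Sdhd. That gave 85 genes of 48858 in the table, 35 for complex I, 4 for complex II, 8 for complex III, 20 for complex IV and 18 for complex V. Ndufa4 and its paralogue Ndufa4l2 were counted with complex IV, in which the NDUFA4 protein is now placed, and Atp5o is listed under 2 gene identifiers. RNA was measured in naive CD4 T cells sorted from mice by rRNA-depleted, random-primed sequencing, with 2 wild-type libraries (WT1 and WT2) and 2 double-knockout libraries (DKO1 and DKO2). The WT mice were littermates of genotype Btg1f/f Btg2f/f, so both genes were flanked by loxP sites but intact. The DKO mice carried the same floxed alleles and a CD4-Cre transgene, which is active from thymic development onward in cells of the CD4 and CD8 T lineages, so deletion precedes the naive stage. The sort kept cells high in CD62L, low in CD44 and without CD25. Cre itself was present only in the DKO group, and the labels give no age for either group.

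The respiratory chain passes electrons from NADH through complex I, and from succinate through complex II, to coenzyme Q, then through complex III and cytochrome c to complex IV, where oxygen is reduced. Complexes I, III and IV pump protons across the inner mitochondrial membrane and complex V, the ATP synthase, uses the gradient to make ATP. All complexes but II combine subunits encoded in the nucleus with subunits encoded in mitochondrial DNA, and resting naive T cells rely largely on this pathway for ATP. BTG1 and BTG2 belong to one family of proteins that recruit the CCR4-NOT complex to messenger RNA, where it shortens poly(A) tails.

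Sequence is shown for 2 sets of genes. The first set carries, near its start sites, the palindrome GCGCATGCGC, which is the core bound by NRF1, a transcription factor known for regulating subunit genes in every complex. RefSeq promoters from 250 bases before to 50 bases after the start (GRCm38.p6) matched 66 of the genes, and 5 of them (7.58%) held these letters, against 231 of 17492 protein-coding promoters (1.32%). The palindrome reads the same on both strands and is in capitals in each 30-base window.
Atp5g2, chr15:102671070-102671099, minus strand: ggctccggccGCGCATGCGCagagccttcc
Atp5k, chr5:108434430-108434459, minus strand: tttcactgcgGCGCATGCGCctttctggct
Cox6a1, chr5:115349101-115349130, minus strand: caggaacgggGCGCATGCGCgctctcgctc
Ndufa11, chr17:56717692-56717721, plus strand: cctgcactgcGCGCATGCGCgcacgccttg
Uqcrc1, chr9:108936668-108936697, plus strand: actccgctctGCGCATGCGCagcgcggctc
The capitals begin 42, 50, 162 and 60 bases before the start of Atp5g2, Atp5k, Cox6a1 and Ndufa11, and at base 31 after that of Uqcrc1. On either strand, the ETS core CCGGAAG was found in 15 of the 66 promoters (22.7%, against 11.9% of all), the YY1 element AAGATGGCG in 6 (9.09%, against 1.94%) and the TATA box TATAAA in 7 (10.6%, against 13.3%). These are matches of letters and not measured sites.

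The second set is Atp5g1, Atp5g2 and Atp5g3, 3 genes on chromosomes 11, 15 and 2 that encode the same mature subunit c, the membrane ring of the ATP synthase. It is shown because counts can be assigned to each gene only where their sequences differ. The last 78 codons encode the same residues in all 3, yet 63 of these 234 bases differ between the genes, 55 of them at the third base of a codon. A 120-base coding stretch of each, from the GENCODE M21 transcripts, has the differing positions in capitals.
Atp5g1: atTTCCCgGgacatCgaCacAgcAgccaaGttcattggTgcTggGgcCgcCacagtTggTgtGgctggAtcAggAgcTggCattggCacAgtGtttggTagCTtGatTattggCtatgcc
Atp5g2: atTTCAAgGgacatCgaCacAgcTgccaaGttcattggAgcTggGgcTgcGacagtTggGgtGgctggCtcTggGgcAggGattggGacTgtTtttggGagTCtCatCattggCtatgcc
Atp5g3: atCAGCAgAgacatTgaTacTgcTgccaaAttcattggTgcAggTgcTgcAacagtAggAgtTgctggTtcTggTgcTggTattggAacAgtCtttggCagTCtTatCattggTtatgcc
Over the 234 bases Atp5g1 and Atp5g2 were 84.6% identical, Atp5g1 and Atp5g3 78.6%, and Atp5g2 and Atp5g3 77.4%. The longest run without a difference was 20 bases between any pair, so no 31-base word of this stretch is shared.

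The libraries held 13889894 to 17827631 estimated counts, of which 30.4% and 30.7% in WT and 35.4% and 40.4% in DKO fell on nuclear protein-coding genes. Btg1 fell from 7378 and 5443 counts in the WT libraries to 103 and 125 in the DKO libraries, and Btg2 from 1295 and 1067 to 5 and 7. The 9 markers of naive CD4 T cells were all detected, several of them higher in both DKO libraries. B cell markers summed to 0.861 and 0.345 CPM (counts scaled to the library size) in WT and 1.65 and 1.48 in DKO. Myeloid markers summed to at most 4.81 CPM and erythroid markers to at most 1.02. Cd8a had 1 to 6 counts and Cd8b1 86 to 280. In CPM, Cd8b1 was at 6.75 and 7.42 in WT and 8.54 and 12.9 in DKO. Of the activation markers, Cd44 was at 15.1 and 16.8 CPM in WT and 29.3 and 28.6 in DKO, and Il2ra at 1.87 and 3.19 against 6.06 and 5.82, while Cd69 and Myc overlapped between genotypes. The part of these markers' shift in the values that follow was not tested. Levels per gene are given either as CPM of the TMM-scaled library size, for comparison between libraries, or as TPM, counts corrected for transcript length and scaled to a common total, for comparison between genes. In bulk RNA a lower level per cell and fewer cells with the RNA cannot be told apart. Nothing in the labels says more of the animals than that 2 pairs of WT and DKO mice were sorted, and p-values measure the spread between these libraries.

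No respiratory chain subunit was called as changed between WT and DKO cells. Of the 85 genes, 75 passed the filter on low counts and none was called by edgeR's quasi-likelihood test at a Benjamini-Hochberg adjusted p under 0.05, where 0.0544% of all 12863 genes tested were called higher in DKO and 0.07% lower. At an unadjusted p under 0.05, 0 subunit genes were higher and 3 lower, against 4.39% and 2.66% of the protein-coding genes tested. DESeq2 called 1, Cox7a2l, and 168 of all genes. The median log2 fold change (DKO minus WT) was -0.10 over the 75 genes and 0.02 over protein-coding genes, and 55 of the 75 values were negative. These signs depend on the scaling, with which the medians of all genes moved. Scaled to total counts, the median was 0.25 for the subunits and 0.33 for all genes, and scaled to polymerase III transcripts 0.86 and 0.90. In log2(TPM + 1) it was 0.22 against 0.08 for all genes and 0.11 for protein-coding genes, and in log2(TPM + 0.1) 0.31 against 0.27 and 0.30. The side of the background on which the subunits lay thus also depended on the scaling.

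With TMM scaling, both DKO libraries were above both WT libraries for 5 of the 75 genes and below them for 13, whereas 22.3% and 16.4% of protein-coding genes were so placed, and the other 57 overlapped. Scaled to total counts, 42 were above and 2 below, where 56.1% and 2.73% of protein-coding genes were. Standard errors of the log2 fold change ran from 0.14 to 0.34 with a median of 0.19, so differences of the size of the medians were not detectable for single genes.

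**Figure D1:**
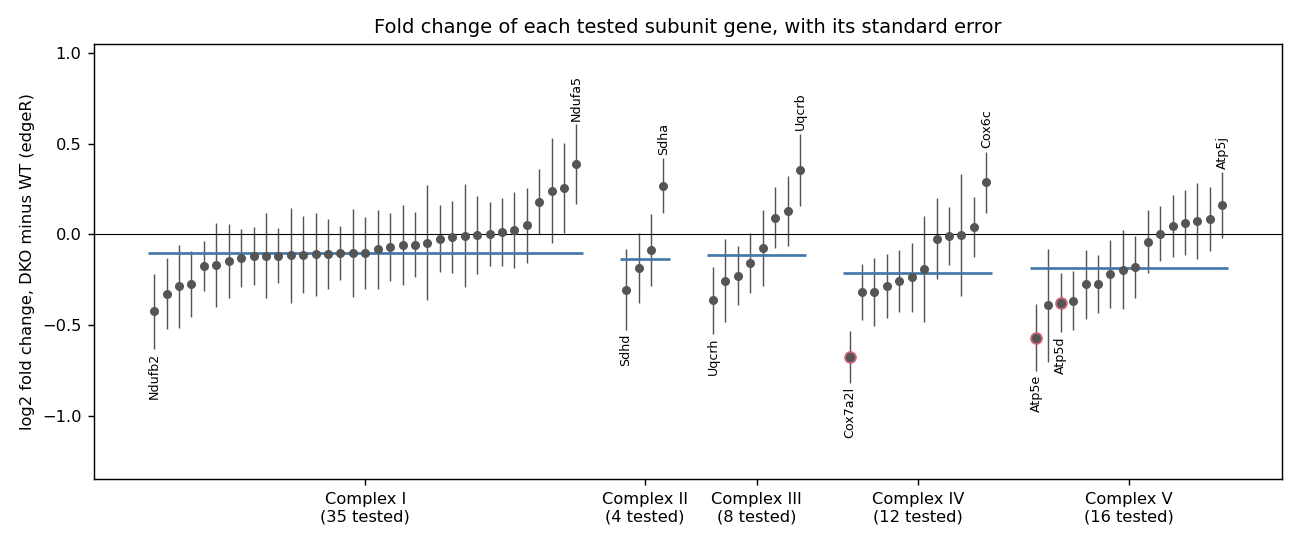
Log2 fold change (DKO minus WT, edgeR) of each of the 75 tested subunit genes, sorted within its complex, with bars for 1 standard error and blue lines for the median of each complex. Red rims mark the 3 genes with an unadjusted p under 0.05, Cox7a2l at -0.68, Atp5e at -0.57 and Atp5d at -0.38, and the highest and lowest gene of each complex is named.

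The spread between the WT libraries was larger than the difference between genotypes. WT2 was above WT1 for 73 of the 75 genes, with a median log2 ratio of 0.43, against 0.03 for all protein-coding genes. DKO2 was above DKO1 for 16 of the 75, with a median of -0.11 against 0.00. The rise from WT1 to WT2 was not particular to the subunit genes. WT2 was above WT1 in 84 of 84 cytosolic ribosomal protein genes (median log2 ratio 0.43). It was so in 63 of 78 mitochondrial ribosomal protein genes (0.27) and 13 of 14 tricarboxylic acid cycle genes (0.19). The same held for only 9 of 17 assembly factors of complex I and 1 of 13 mitochondrially encoded subunits. By length, WT2 was above WT1 in 82.6% of protein-coding genes under 600 bases and in 50.8% of those of 1000 bases or more. From 600 to under 1000 bases it was 72.2%. Among subunit genes, the same held for 25 of 25 under 600 bases and 28 of 30 from 600 to under 1000 bases. It held for 20 of 20 of 1000 bases or more. These 20 had a median log2 ratio of 0.46, and all protein-coding genes of that length had 0.01. The part of transcript length or of abundance in the rise from WT1 to WT2 was not tested. The mean fragment length implied by the deposited effective lengths was 123 and 119 bases in WT and 132 and 141 bases in DKO, and its part in these values was not tested. Without WT1 the median fold change of the subunits was -0.29, with 0 genes higher and 24 lower at an unadjusted p under 0.05, against 5.4% and 4.38% of protein-coding genes in the same fit. Without WT2 it was 0.17, with 10 higher and 2 lower, against 8.89% and 4.56%. Without DKO2 the median was -0.003, with 1 lower.

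**Figure D2:**
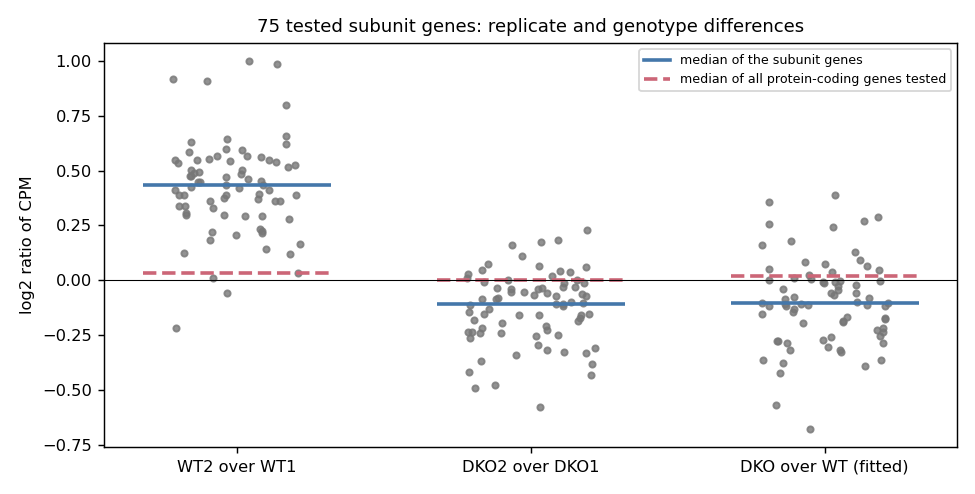
Log2 ratios of CPM for the 75 tested subunit genes, as WT2 over WT1, DKO2 over DKO1 and the fitted DKO over WT; each point is a gene, blue lines are the medians of the subunit genes and dashed red lines those of all protein-coding genes tested. The subunit genes sit at a median of 0.43 between the WT libraries, further from 0 than the -0.10 between genotypes.

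Complex I, the NADH dehydrogenase, summed to 554 and 734 CPM in WT1 and WT2 and to 636 and 586 CPM in DKO1 and DKO2. The DKO values fell between the WT values. Of its 35 subunits, 27 had a negative and 8 a positive log2 fold change with a median of -0.10, and none had an unadjusted p under 0.05. The 7 core subunits that carry the flavin and the iron-sulfur clusters ran from -0.33 for Ndufs7 to 0.00 for Ndufv2. Ndufs1, the largest iron-sulfur subunit of the arm that faces the matrix, was at 18.3 and 28.9 CPM in WT and 24.3 and 21.01 in DKO (log2 fold change -0.06, SE 0.22). Ndufv1, which holds the flavin that accepts electrons from NADH, was at 16.4 and 21.4 against 19.6 and 15.6 CPM, and the 2 groups overlapped for both genes.

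The accessory subunits of complex I held both ends of its range. Ndufa5, an accessory subunit of the peripheral arm, was at 9.26 and 13.7 CPM in WT and 15.6 and 14.4 in DKO (0.39, SE 0.22, adjusted p = 0.704, edgeR). The DKO libraries did not overlap the WT libraries. Ndufb2, a small subunit of the membrane arm, was at 11.1 and 9.58 against 7.89 and 7.57 CPM (-0.42, SE 0.21, adjusted p = 0.653, edgeR), with both DKO libraries below. By TPM, Ndufa3 (7.69 ± 0.674 in WT, 8.55 ± 0.158 in DKO; SD over 2 libraries) and Ndufa6 (6.89 ± 0.218 and 8.64 ± 0.753) were the most abundant of complex I, and Ndufa11 was the least, with 0.286 ± 0.0954 and 0.450 ± 0.0307.

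Complex II, succinate dehydrogenase, also works in the tricarboxylic acid cycle and has no mitochondrially encoded subunit. It summed to 119 and 156 CPM in WT and 153 and 145 CPM in DKO, and the groups overlapped. Sdha, the flavoprotein that oxidises succinate (chr13:74322254-74350280, minus strand), was at 76.1 and 95.7 CPM in WT and 108 and 98.7 in DKO. Both DKO libraries were above both WT libraries, by a log2 fold change of 0.27 (SE 0.15), which did not pass the test (adjusted p = 0.705, edgeR). Its fold change was positive in every alternative run, from 0.11 without WT1 to 1.21 with polymerase III scaling. The iron-sulfur subunit Sdhb was at 18.4 and 27.1 against 21.4 and 21.3 CPM. The membrane anchors had log2 fold changes of -0.19 for Sdhc and -0.30 for Sdhd, and all but Sdha overlapped.

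Complex III, which passes electrons from coenzyme Q to cytochrome c, summed to 196 and 264 CPM in WT and 222 and 199 CPM in DKO. The DKO libraries again fell within the WT range. Uqcrfs1, the Rieske iron-sulfur protein, was at 21.8 and 26.9 against 21.4 and 20.1 CPM (-0.23, SE 0.16), just without overlap. The core protein Uqcrc1 was at 18.8 and 27.6 against 24.8 and 25.9 CPM. Uqcrb, which helps form the coenzyme Q site, was at 14.3 and 20.9 against 22.6 and 22.4 CPM (0.36, SE 0.20, adjusted p = 0.702, edgeR). Uqcrh, the hinge protein at the cytochrome c side, lay at the other end with 72.3 and 105 against 72.4 and 65.6 CPM (-0.36, SE 0.19, adjusted p = 0.671, edgeR). It was also the most abundant of complex III per length, with 16.2 ± 2.39 TPM in WT and 17.2 ± 0.693 in DKO, ahead of Uqcrq with 4.98 ± 0.0837 and 5.80 ± 0.301 TPM (SD over 2 libraries).

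Complex IV, cytochrome c oxidase, had the lowest median log2 fold change of the complexes, -0.21 over its 12 tested genes, of which 10 were negative. Its genes summed to 403 and 522 CPM in WT and 401 and 359 CPM in DKO, so that DKO1 was only just below WT1. The log2 difference of the sum was -0.28, but 0.065 with total counts, 0.66 with polymerase III scaling and 0.20 in summed TPM. Cox7a2l carried the widest difference among all 75 genes. It encodes a protein related to the Cox7a subunits that joins complexes III and IV into supercomplexes. Cox7a2l (chr17:83501918-83517330, minus strand) was at 123 CPM in WT1, 142 in WT2, 88.8 in DKO1 and 77.7 in DKO2. Both DKO libraries were below both WT libraries, with a log2 fold change of -0.68 (SE 0.14), an unadjusted p of 0.00131 and an adjusted p of 0.165 (edgeR).

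Cox7a2l did not pass the test over all genes in the fit of all 4 libraries, and 4 of 14 alternative settings called it, with adjusted p-values from 0.00922 to 1 over the 14. The crossed pairing of libraries, added after the data were seen, is not among the 14 and called it as well. These settings also called more of all genes than the 16 of the main fit. The counts were 168 with DESeq2, 395 without the low count filter, 51 with nuclear protein-coding genes only and 520 with the crossed pairing. Its fold change was negative in 13 of the 14 and 0.25 when libraries were scaled to polymerase III transcripts. DESeq2 gave an adjusted p of 0.0381, and the edgeR fit without WT1 gave 0.0269. It was also the one gene of the 75 whose TPM were lower in both DKO libraries than in both WT libraries, 10.9 ± 0.103 in WT and 9.02 ± 0.0337 in DKO (SD over 2 libraries), where 2.87% of protein-coding genes were. Another 54 were higher in both DKO libraries, as were 54.5% of protein-coding genes, and 20 overlapped. Of its counts 99.6% were in 1 transcript, Cox7a2l-201 of 1078 bases, with 1719, 1651, 1508 and 1657 counts in the order WT1, WT2, DKO1 and DKO2, and Cox7a2l-202 had 26 in DKO2 and 0 elsewhere. Of its 31-base words 16.6% also occur in other genes, chiefly the pseudogene Gm6969, which had 0 to 1.5 counts.

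The other subunits of complex IV differed less. Cox4i1, the widely expressed form of the subunit that binds ATP, was at 63.8 and 82.0 CPM in WT and 60.8 and 56.3 in DKO (-0.32, SE 0.16, adjusted p = 0.656, edgeR). Cox5a was at 11.6 and 13.2 against 10.2 and 9.70 CPM (-0.32, SE 0.19), and both genes were without overlap. Cox6c, a small subunit of the membrane part, lay at the upper end with 23.7 and 32.3 against 34.4 and 33.8 CPM (0.29, SE 0.17, adjusted p = 0.718, edgeR). It shares sequence with the neighbouring Vps13b gene in 11.9% of its 31-base words, and Vps13b had 757 to 1672 counts, so the split between them is uncertain.

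Complex V, the ATP synthase, summed to 736 and 978 CPM in WT and 833 and 786 CPM in DKO, within the WT range. Its catalytic head is built of alpha and beta subunits on a central stalk. The alpha subunit gene Atp5a1 was at 146 and 198 against 175 and 180 CPM, and the beta subunit gene Atp5b at 162 and 201 against 188 and 177 CPM. Neither differed between genotypes beyond the spread of the WT libraries, with log2 fold changes of 0.05 (SE 0.17) and 0.01 (SE 0.15). The delta and epsilon subunits of the central stalk were lower at an unadjusted p under 0.05 and did not pass the adjustment. Atp5e (chr2:174461072-174464105, minus strand) was at 22.8 and 30.8 CPM in WT and 19.2 and 16.9 in DKO (-0.57, SE 0.18, adjusted p = 0.416, edgeR). Atp5d (chr10:80138632-80145818, plus strand) was at 44.4 and 51.5 against 41.3 and 32.6 CPM (-0.38, SE 0.16, adjusted p = 0.610, edgeR), and for both genes the DKO libraries lay below the WT libraries. Scaled to total counts the values were -0.22 and -0.04, and to polymerase III transcripts 0.38 and 0.54.

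The peripheral stalk and membrane subunits of complex V ran from -0.39 for Atp5mpl to 0.16 for Atp5j. Atp5j, the coupling factor of the peripheral stalk, was at 31.5 and 43.3 against 45.3 and 38.5 CPM. By TPM, Atp5b led all subunit genes with 17.0 ± 1.58 in WT and 25.1 ± 3.61 in DKO (SD over 2 libraries). Part of this came from the short processed transcripts Atp5b-206 and Atp5b-207 of 478 and 343 bases, beside the coding transcript Atp5b-201. In the order WT1, WT2, DKO1 and DKO2, Atp5b-206 had 428, 400, 495 and 637 counts, Atp5b-207 had 87, 183, 258 and 411, and Atp5b-201 had 1714, 1743, 2424 and 2711. Within complex V the subunit next in TPM was Atp5h of the peripheral stalk, with 10.2 ± 1.46 and 14.5 ± 1.88.

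**Figure D3:**
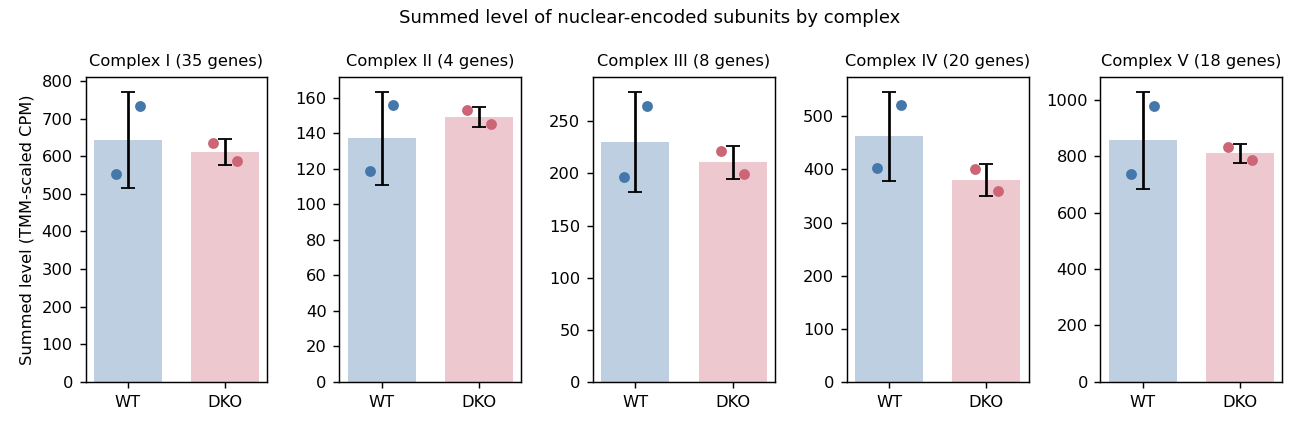
Summed CPM of the nuclear-encoded subunits of each complex in WT (blue) and DKO (red), with points for libraries, bars for means from 0 and whiskers for 1 SD over 2 libraries. With the TMM scaling used here, complex IV alone has both DKO libraries, at 401 and 359, below both WT libraries, at 403 and 522; scaled to total counts its sum is higher in DKO by 0.065 on the log2 scale.

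Ratios of counts inside a library need no scaling between libraries, and the spread between the WT libraries was smaller in them. Complex I over complex V was 0.753 and 0.750 in the WT libraries and 0.764 and 0.746 in the DKO libraries, and complex III over complex V 0.267 and 0.270 against 0.266 and 0.254. Complex II over complex V was 0.161 and 0.159 in the WT libraries and 0.184 and 0.184 in the DKO libraries, and complex IV over complex V was 0.547 and 0.533 against 0.482 and 0.457. In these 2 ratios the genotypes did not overlap, and the gap was wider than the difference between libraries of a genotype.

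Sdha and Cox7a2l made up most of both shifts. Sdha held 64.1% and 61.5% of the counts of complex II in WT and 70.7% and 68.1% in DKO, and without it the ratio of complex II to complex V was 0.0579 and 0.0613 against 0.0537 and 0.0589. Cox7a2l held 30.7% and 27.3% of the counts of complex IV in WT and 22.1% and 21.6% in DKO. Without it the ratio of complex IV to complex V was 0.379 and 0.387 against 0.375 and 0.358. In summed TPM, which allow for transcript length, complex II over complex V was 0.0839 and 0.0797 against 0.0917 and 0.0906. Complex IV over complex V was 0.725 and 0.675 against 0.654 and 0.619. There the genotypes did not overlap, but the gap for complex IV was narrower than the difference between the libraries of either genotype. These ratios were not tested, as 0.333 is the smallest p that exact two-sided permutation of 2 against 2 libraries allows, and those that single out Sdha and Cox7a2l were chosen after their values were seen.

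**Figure D4:**
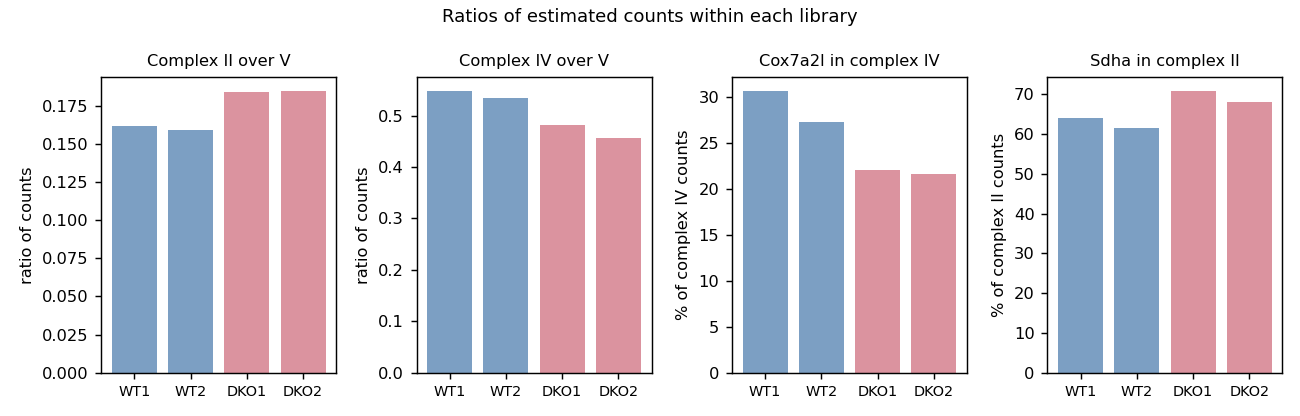
Ratios of estimated counts within each library (WT blue, DKO red; bars start at 0), for complex II over V, complex IV over V, Cox7a2l as a percentage of complex IV and Sdha as a percentage of complex II. Cox7a2l falls from 30.7% and 27.3% in WT to 22.1% and 21.6% in DKO, while Sdha is at 64.1% and 61.5% against 70.7% and 68.1%.

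Several positions in complex IV and V can be filled by paralogues with their own tissue range, and the widely expressed forms held nearly all of the counts. Cox4i1 had 9.53 ± 0.259 TPM in WT and 9.98 ± 0.520 in DKO, whereas its lung form Cox4i2 had 1 count in DKO1 and 0 elsewhere. Cox6a1 was at 7.42 ± 0.660 and 8.26 ± 0.151 TPM, Cox6b1 at 4.79 ± 0.286 and 6.58 ± 0.405, Cox7b at 3.89 ± 0.00594 and 5.30 ± 0.102, and Cox8a at 7.97 ± 0.751 and 9.08 ± 0.259 TPM. Their muscle and testis forms Cox6a2, Cox7b2, Cox8b and Cox8c were at 0 in all 4 libraries, as was Ndufa4l2, the hypoxia-induced paralogue of Ndufa4. At 3 counts, taken as the floor for 0, a gene would have 0.139 to 0.259 CPM.

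The remaining forms were seen in a few counts only. Cox6b2, the testis form, had 0, 1, 2 and 8 counts in the order WT1, WT2, DKO1 and DKO2, and the muscle form Cox7a1 had 0, 1, 0 and 1. Cox7a2, its widely expressed counterpart, was at 2.71 ± 0.631 TPM in WT and 3.05 ± 0.0552 in DKO, below the 10.9 and 9.02 of Cox7a2l. Ndufa4 was at 1.35 ± 0.483 and 1.90 ± 0.0771 TPM, the lowest tested gene of complex IV (SD over 2 libraries for the paralogues). The 10 genes that did not pass the filter were these 8 rare forms, Atp5s with 6 to 11 counts and the second Atp5o entry at 0.

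The 3 subunit c genes, whose coding sequences are printed above, were all expressed. Atp5g2 was at 36.0 and 46.5 CPM in WT and 33.7 and 30.3 in DKO (-0.37, SE 0.16, adjusted p = 0.626, edgeR), Atp5g3 at 18.4 and 24.6 against 19.6 and 17.3, and Atp5g1 at 13.8 and 20.8 against 18.4 and 17.9 CPM. Of their summed TPM, Atp5g2 held 56.5% and 52.5% in WT and 49.4% and 49.3% in DKO, Atp5g1 14.7% and 19.2% against 21.8% and 22.3%, and Atp5g3 28.8% and 28.3% against 28.8% and 28.4%. By TPM the order Atp5g2, Atp5g3, Atp5g1 held in each library, and only the share of Atp5g3 overlapped between genotypes. Atp5g2 shares 40.2% of its 31-base words with other genes, chiefly the pseudogene Gm10175 at 0 counts. Atp5g1 shares 14.1% of its words, with 3019 other genes. Its TPM also depend on the estimated split between transcripts of unlike length. In the order WT1, WT2, DKO1 and DKO2, Atp5g1-202 of 596 bases had 11, 53, 108 and 134 counts. Atp5g1-203 of 691 bases had 100, 111, 92 and 97, and Atp5g1-201 of 4715 bases had 81, 76, 113 and 158.

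**Figure D5:**
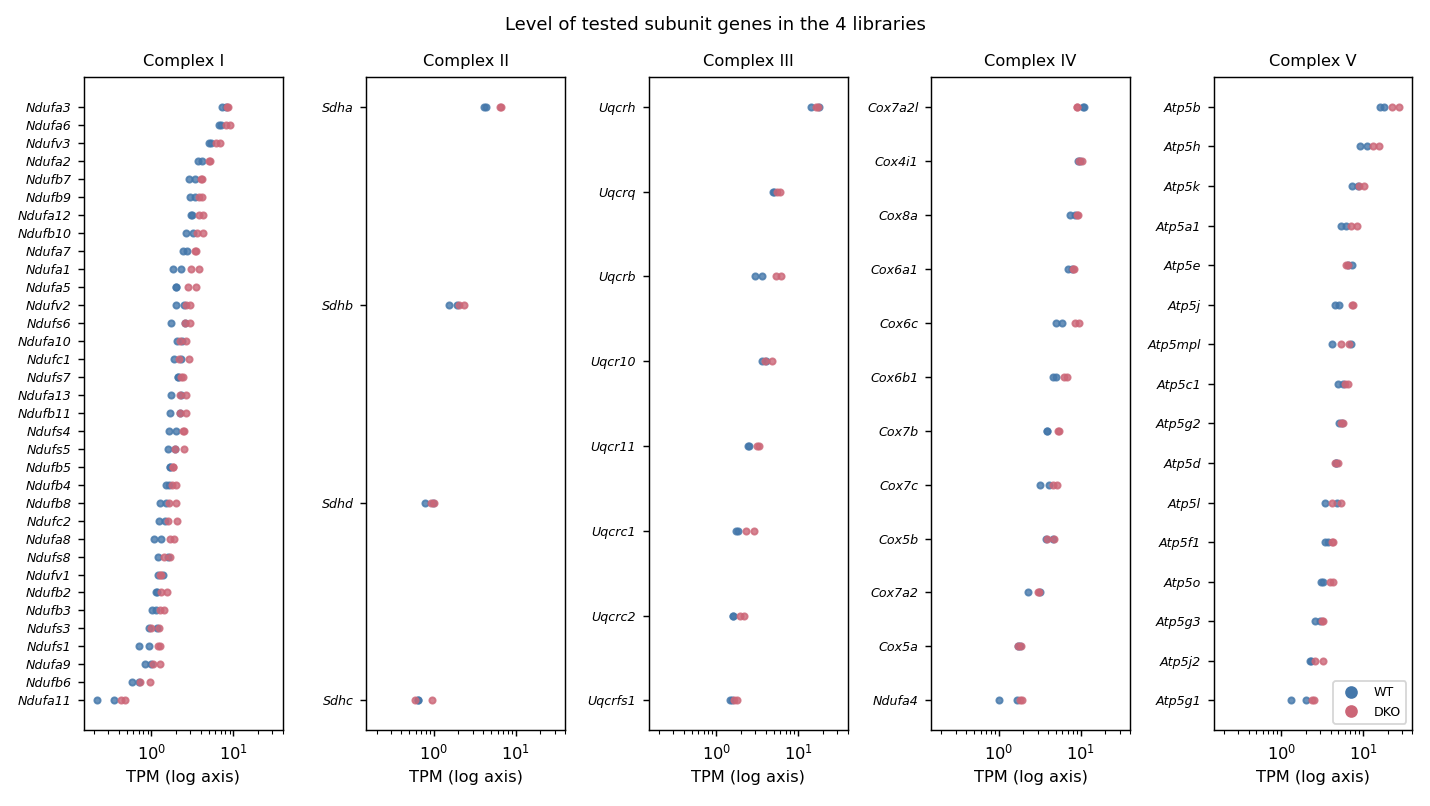
TPM of tested subunit genes in the 2 WT (blue) and 2 DKO (red) libraries on a log axis, sorted by mean within each complex. Most genes have both DKO points to the right of both WT points, and Cox7a2l, at 10.9 in WT and 9.02 in DKO, is the gene with both DKO points to the left.

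Transcripts annotated as protein-coding held 90.2% and 92.4% of the counts of the subunit genes in WT and 92.1% and 91.9% in DKO. In 72 of the 75 genes the transcript with the most counts was a coding one, and in 38 it held at least 90% of the counts. Retained-intron transcripts held 3.79% in WT1 and 2.20% to 2.59% in the other libraries. Ndufs7, Cox7b and Ndufc1 had their leading share in a processed or retained-intron transcript (69.3% in Ndufs7-206, 56.3% in Cox7b-203 and 45.4% in Ndufc1-203). Kallisto splits reads between overlapping transcripts by their likelihood, so these shares are estimates.

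The transcript makeup of Ndufa3 is given as values with no test, since the gene was picked out for it after they were seen. The coding transcript Ndufa3-201 had 162 and 271 counts in the WT libraries, against 393 and 463 in DKO, while Ndufa3-204, annotated for nonsense-mediated decay, had 168 and 138 against 102 and 87. The gene's share outside coding transcripts was 52.6% and 34.8% in the WT libraries and 22.9% and 17.4% in the DKO libraries, and the WT libraries lay further apart than WT2 and DKO1.

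The mitochondrially encoded subunits, the partners of these proteins, had lower values in DKO with TMM scaling. None passed the adjusted threshold in the edgeR fit from which the fold changes are given. Scaled to polymerase III transcripts, their values were higher (median log2 fold change 0.21). Of 13 genes, 12 had negative log2 fold changes and both DKO libraries below both WT libraries, where 16.4% of protein-coding genes tested were so placed. At an unadjusted p under 0.05, 10 were lower, against 2.66% of protein-coding genes (edgeR). The median was -0.63 and the smallest adjusted p 0.219 (edgeR). DESeq2 called 3 of the 13 at the adjusted threshold, and 168 of all 25924 genes in that fit. In other edgeR settings the calls were 7 without the low count filter (395 of all 25924 genes). With the crossed pairing of libraries they were 4 (520 of all 12863 genes). With polymerase III scaling 1 was called (494 of all 12863 genes), and it was higher in DKO. There, 0 of the 13 were lower at an unadjusted p under 0.05 (edgeR). Calls were 0 with total counts, with the effective length offset and with the replicate number as a block. The count of 10 was 5 without WT1 (median -0.28), 12 without WT2, 4 without DKO1, 1 without DKO2, 1 with total counts (median -0.31) and 0 with TPM (median -0.19). The 3 with the smallest p were complex I genes, mt-Nd6 at 449 and 291 CPM in WT and 208 and 195 in DKO, mt-Nd3 at 119 and 119 against 89.1 and 74.0, and mt-Nd5 at 941 and 681 against 520 and 494. WT1 was above WT2 in 12 of the 13, the reverse of the nuclear genes. The ratio of mitochondrially to nuclear-encoded counts was 8.44 and 4.21 in the WT libraries and 3.90 and 3.85 in the DKO libraries for complex I, and 2.87 and 2.42 against 2.59 and 2.73 for complex V. For complex I the DKO libraries were below both WT libraries but closer to WT2 than WT2 was to WT1, and for complex V they overlapped.

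In the edgeR fit of all 4 libraries, no gene of the remaining lists passed the adjusted threshold. Among assembly factors the medians of the log2 fold change were -0.13 for complex I (17 tested), -0.28 for complex II (4), -0.19 for complex III (6), 0.04 for complex IV (22) and 0.07 for complex V (3). At an unadjusted p under 0.05, Dmac1 of complex I, Sdhaf1 of complex II, and Cox17 and Surf1 of complex IV were lower. Sco2 of complex IV was higher. By that rule 4.39% of protein-coding genes tested were higher and 2.66% lower (edgeR). Cox17, the copper chaperone that supplies complex IV, was at 20.5 and 22.3 CPM in WT and 14.9 and 13.99 in DKO (-0.57, SE 0.16, adjusted p = 0.327, edgeR), and did not overlap. Sco2, another copper carrier, was at 0.502 and 1.21 against 2.36 and 2.22 CPM.

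Among the other lists, subunits and carriers outside the symbol rule, among them cytochrome c, had a median of -0.11 over 8 genes, coenzyme Q synthesis -0.04 over 12, the tricarboxylic acid cycle 0.04 over 14 and the transcriptional regulators of the chain 0.00 over 13. Of all these, only Coq10a had an unadjusted p under 0.05, at 3.95 and 3.89 CPM in WT and 2.47 and 1.80 in DKO. The regulators with the smallest p were Yy1 at 50.1 and 59.5 against 72.6 and 63.2 CPM, the ETS factor Gabpa at 33.2 and 39.0 against 42.3 and 40.2 CPM, and Tfam, which packs mitochondrial DNA and helps start its transcription, at 19.3 and 23.1 against 32.6 and 22.7. The 78 mitochondrial ribosomal proteins had a median of -0.12, with 1 lower at an unadjusted p under 0.05, against 2.66% of protein-coding genes (edgeR). The median of the 78 was -0.23 without WT1, 0.08 without WT2 and 0.00 without DKO2. It was 0.22 with total counts, 0.82 with polymerase III scaling and 0.13 and 0.27 with TPM and pseudocounts of 1 and 0.1. The cytosolic ribosomal proteins, taken by symbol, were for the most part another set of short and abundant messages. The symbols also took in Rps19bp1, Rpl7l1 and Rpl9-ps6, which had fewer counts than most of the list. The median was -0.52 over 84 tested genes (-0.17 with total counts, -0.11 with TPM and a pseudocount of 1, 0.42 with polymerase III scaling). At an unadjusted p under 0.05 (edgeR), where 4.39% of protein-coding genes tested were higher and 2.66% lower, 0 were higher and 50 lower. That count was 80 without WT1, 19 without WT2, 25 without DKO1, 3 without DKO2, 5 with total counts and 2 with TPM, and DESeq2 called 8 at the adjusted threshold. Over all genes DESeq2 called 168. In other edgeR settings the calls at that threshold were 21 without the low count filter, where 395 of all genes were called. They were 3 with nuclear protein-coding genes only (51 of all genes) and 3 with the replicate number as a block (142 of all genes). With the crossed pairing they were 59 (520 of all genes), and with total counts 1 (260 of all genes). Rpl12, for example, was at 150 and 154 CPM in WT and 86.3 and 66.3 in DKO. Respiratory chain subunits had 3 lower of 75 by the same rule. A test of the difference between the lists was not made.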

How the data were processed

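RNA-seq of 4 libraries was analysed from transcript abundances that the authors estimated with kallisto against GRCm38 (mm10), builds listed in the submitters' processing notes; its version, strand setting and transcript annotation were not given in the sources used here. Unscaled estimated counts were deposited, per the file headers, and the deposited TPM are scaled by the authors for effective length, per the same headers. A deposited effective length (another unit, in bases) was used only as an offset. Of 126782 transcripts, 98.7% joined GENCODE M21 by identifier; the rest held 0.822% to 0.852% of counts and were left out. Estimated counts were summed per gene, rounded and tested with edgeR 4.0.16 in R 4.3.3 (filterByExpr, TMM, robust quasi-likelihood F test on genotype, Benjamini-Hochberg adjustment at 0.05 over 12863 genes). SE is the log2 fold change over the square root of F. The functions were tested on simulated data. Alternatives used DESeq2 1.42.0, other scalings and filters, and limma 3.58.1 on log2(TPM + 1) and log2(TPM + 0.1).

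Members with values were named by rule, namely the top 2 by TPM and both ends of the fold change per complex, unadjusted p under 0.05, paralogue families and core subunits, and up to 3 genes per other list by p; exceptions are marked. The genes and lists were chosen with earlier results of these data known. Counts carry no molecular identifiers, so floors cover counting error only. The values of 1 subunit gene and 1 marker are not reported here.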

Additional observations from a re-analysis of the deposited data

How the results depend on the processing

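The count of subunit genes called was 0 in the edgeR fit of all libraries and 1, Cox7a2l in each case, with DESeq2, with nuclear protein-coding genes only, with no low count filter and without WT1; leaving out a library gave 0 to 1. The median log2 fold change moved from -0.10 to 0.25 with total counts, to 0.86 with polymerase III scaling, and to 0.22 and 0.31 with TPM and pseudocounts of 1 and 0.1; leaving out a library gave -0.29 (without WT1) to 0.17 (without WT2). The summed log2 difference, -0.11 for all subunits and -0.08, 0.12, -0.13, -0.28 and -0.08 for complexes I to V, was 0.24, 0.27, 0.47, 0.22, 0.065 and 0.27 with total counts, 0.84, 0.88, 1.07, 0.82, 0.66 and 0.87 with polymerase III scaling, and 0.30, 0.34, 0.50, 0.26, 0.20 and 0.34 with summed TPM under either pseudocount. Leaving out a library gave -0.298 to 0.121 for all subunits, -0.266 to 0.157 for complex I, -0.065 to 0.343 for complex II, -0.328 to 0.118 for complex III, -0.458 to -0.069 for complex IV and -0.274 to 0.154 for complex V, with WT1 and WT2 as the ends. The cause was not tested. The median of all genes moved too, to 0.33 with total counts and 0.90 with polymerase III scaling.

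Libraries with the same replicate number did not deviate together: the correlation of deviations from the group means was -0.364 between WT1 and DKO1 and, by construction with 2 libraries per group, 0.364 between WT1 and DKO2. The labels do not say which mice form a pair. With the replicate number as a block, 0 subunit genes were called, the median was -0.09, and the count over all genes moved from 16 to 142. With the numbers crossed, an alternative chosen after seeing the data, 1 subunit gene, Cox7a2l, was called, and 520 of all genes. Precision is limited by 2 libraries per group.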
